A study of Mus musculus with 13 samples.

Results

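Creatine and calcium futile cycling genes were examined in interscapular brown adipose tissue (iBAT), a set of 9 genes that was chosen by name: Gatm, Gamt, Slc6a8, Ckb, Ckmt1, Ckmt2, Alpl, Atp2a2 and Ryr2. All 9 were found among the 42416 Ensembl identifiers of the count files, and 8 of the 9, all but Ckmt1, passed the filter on low values, which 13360 genes passed. The filter asked for over 1 CPM, the counts of a gene for each M of counts in a library, in at least 5 libraries, before TMM scaling. Unless said otherwise, CPM below is TMM-scaled. RNA of 13 iBAT samples had been sequenced in bulk, 1 library each, and all 13 had in common an HFD (high-fat diet), housing at room temperature and tamoxifen, given on consecutive days and repeated every 3 weeks. In 8 of them, iFAXLKO, the Axl gene is floxed (loxP-Axl-loxP) and the mouse is Cre+, and in the other 5, WT, Axl is floxed as well and the mouse is Cre-, so the controls carry the loxP sites and the tamoxifen too. Per the methods of the study, Cre is a tamoxifen-inducible CreERT2 driven by Adipoq sequences on a bacterial artificial chromosome, and thus aimed at adipocytes, whereas the libraries hold RNA of every cell in the dissected depot. The study describes the mice of this comparison as female littermates, and the labels of the libraries give no age at sampling and no duration of the diet.

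Brown fat makes heat mainly through UCP1, which lets protons leak across the inner mitochondrial membrane. Futile cycles are another way of turning ATP into heat. In the creatine cycle, creatine is phosphorylated by a creatine kinase at the mitochondrion and the phosphate is then removed again, which spends ATP without work, and in the calcium cycle the SERCA pump moves calcium into the endoplasmic reticulum at the cost of ATP while a ryanodine receptor lets it out. Skeletal muscle uses the same protein families for contraction, in its own isoforms, and muscle lies next to the interscapular depot, which is why each gene was compared with the muscle transcript Acta1 across the libraries.

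The libraries held 22.4 to 32.6 M counts, between 18.3% and 21.3% of them from mitochondrially encoded genes. A count of 0 allowed up to 3 counts, or 0.092 to 0.134 CPM before TMM scaling, and this covers counting error only. Ucp1 stood at 4030 to 7894 CPM, and the 6 brown adipocyte markers summed to 8595 to 12813 CPM in WT and 6766 to 10696 CPM in iFAXLKO, so the tissue label matched its markers. The label iFAXLKO did not go with less Axl, the gene that Cre should delete, in counts over the gene and all cells of the depot. For adipocytes, the study shows a western blot of AXL in the mature fraction of inguinal white fat, which these libraries do not cover. Axl stood at 27.8 ± 3.82 CPM (SD, n = 5) in WT against 33.1 ± 6.16 CPM (SD, n = 8) under that label (log2 fold change 0.25, SE 0.13, edgeR adjusted p = 0.699). Both group names below are therefore those of the labels, and every direction between the groups rests on them. Skeletal muscle RNA varied far more between libraries than any of these. Acta1, the actin of skeletal muscle, ranged from 0.438 CPM in iFAXLKO replicate 8 and 4.81 CPM in WT replicate 5 to 1280 CPM in iFAXLKO replicate 5, with no difference called between the groups (log2 fold change -0.27, SE 1.30, edgeR adjusted p = 0.986).

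The start of 4 genes is shown because Ckmt2 followed Acta1 and Ckm across libraries and Ckb did not. The windows run from 250 bases before to 50 bases after the annotated start, 5′ to 3′ on the strand of the gene (RefSeq, GRCm38.p6), with Ckmt2 at chr13:91876836-91877135 on the minus strand, Ckm at chr7:19410844-19411143 on the plus strand, Acta1 at chr8:123894726-123895025 on the minus strand and Ckb at chr12:111672289-111672588 on the minus strand. Capitals mark matches, on either strand, to the E-box CAGCTG, to CATTCC (the core of an MCAT element), to TATAAA (the TATA box) and to CCAAT (the box of that name), and in Ckb a match of CCAAT and that of the MCAT core lie end to end.
Ckmt2: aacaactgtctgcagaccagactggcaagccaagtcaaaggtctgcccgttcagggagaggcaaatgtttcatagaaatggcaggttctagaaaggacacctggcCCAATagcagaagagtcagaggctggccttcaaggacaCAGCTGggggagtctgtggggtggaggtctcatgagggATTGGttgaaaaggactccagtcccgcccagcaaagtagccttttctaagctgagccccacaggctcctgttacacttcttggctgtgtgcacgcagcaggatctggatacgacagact
Ckm: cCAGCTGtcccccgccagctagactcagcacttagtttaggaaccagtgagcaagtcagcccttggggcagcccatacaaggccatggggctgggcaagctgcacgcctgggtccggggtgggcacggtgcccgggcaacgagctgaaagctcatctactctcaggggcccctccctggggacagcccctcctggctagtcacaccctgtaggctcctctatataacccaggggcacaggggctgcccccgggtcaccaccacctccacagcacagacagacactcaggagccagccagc
Acta1: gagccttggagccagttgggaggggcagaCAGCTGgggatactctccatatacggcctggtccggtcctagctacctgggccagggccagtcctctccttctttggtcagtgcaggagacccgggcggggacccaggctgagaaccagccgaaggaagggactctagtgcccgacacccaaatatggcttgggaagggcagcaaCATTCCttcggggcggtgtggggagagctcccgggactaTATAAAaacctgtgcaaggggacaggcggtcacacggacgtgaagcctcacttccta
Ckb: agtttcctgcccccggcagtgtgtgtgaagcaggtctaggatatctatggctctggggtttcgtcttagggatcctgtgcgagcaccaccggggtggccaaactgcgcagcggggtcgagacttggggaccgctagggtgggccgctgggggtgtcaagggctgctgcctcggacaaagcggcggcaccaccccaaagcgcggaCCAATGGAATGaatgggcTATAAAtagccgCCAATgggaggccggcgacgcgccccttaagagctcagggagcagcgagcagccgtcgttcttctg
The E-box CAGCTG, a sequence that myogenic factors are known to bind, was found in each of the windows of Ckmt2, Ckm and Acta1 and not in that of Ckb, and it was also in 1 of the windows of Ckmt1 and of Alpl. It was present in 16.3% of the 32851 promoter windows of the table. TATAAA was found in windows of Acta1, Ckb, Ckmt1 and Alpl (13.62% of all windows), CATTCC in those of Acta1, Ckb and Ckmt1 (14.66%), and CCAAT in those of Ckmt2, Ckb, Gatm and Ckmt1 (37.41%). CATTCC was thus in the window of Ckb and not in those of Ckmt2 and Ckm. The genes shown were picked by their pattern across libraries, so these matches of letters are no test of it. Binding was not measured. Of the 9 members, 7 had a window in the table.

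Creatine is made in 2 steps. Gatm (ENSMUSG00000027199, chromosome 2, 122594467 to 122611303, minus strand) encodes the amidinotransferase of the first step and Gamt (ENSMUSG00000020150, chromosome 10, 80258151 to 80261012, minus strand) the methyltransferase of the second, with positions here and below on GRCm38. Both were expressed at a low level. Gatm was measured at 1.87, 2.17, 2.94, 2.94 and 1.90 CPM in the 5 WT libraries and at 2.02 CPM (lowest), 2.54 CPM (median) and 3.86 CPM (highest) in the 8 iFAXLKO libraries. The groups overlapped over most of their range, and the highest values were those of iFAXLKO replicates 4 and 2. The log2 fold change was 0.20 (SE 0.19, edgeR adjusted p = 0.880), with 5 of 8 iFAXLKO libraries above the WT mean. Gamt was measured at 2.45, 2.91, 1.65, 1.87 and 2.19 CPM in WT and at 1.97, 2.38 and 3.70 CPM (lowest, median, highest) in iFAXLKO. The highest value was that of iFAXLKO replicate 2 and the lowest that of WT replicate 3, and the log2 fold change was 0.18 (SE 0.18, edgeR adjusted p = 0.894).

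Slc6a8 (ENSMUSG00000019558, chromosome X, 73673150 to 73682502, plus strand) encodes the transporter that takes up creatine from the blood. It was the steadiest of the members, with a coefficient of variation of 11.2% over the 13 libraries. The WT libraries stood at 27.9, 22.4, 26.5, 24.2 and 23.2 CPM, and the iFAXLKO libraries at 20.4, 22.5 and 27.9 CPM (lowest, median, highest). The ranges of the groups nearly coincided at the top, and 3 of 8 iFAXLKO libraries lay above the WT mean. The log2 fold change was -0.080 (SE 0.093, 95% interval -0.28 to 0.12, edgeR adjusted p = 0.908).

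Creatine kinases form the core of the cycle, and 3 of the members belong to them. Ckb (ENSMUSG00000001270, chromosome 12, 111669361 to 111672338, minus strand), the brain-type kinase and the one known to act in brown adipocytes, stood at 65.4, 104.6, 157, 106 and 72.7 CPM in WT and at 50.3, 102 and 122 CPM (lowest, median, highest) in iFAXLKO. WT replicate 3 was the highest and iFAXLKO replicate 6 the lowest of all 13, and the iFAXLKO libraries were split evenly about the WT mean, 4 above and 4 below. The log2 fold change was -0.074 (SE 0.24, edgeR adjusted p = 0.977), and its sign turned without WT replicate 3 (0.16) or iFAXLKO replicate 6 (0.021).

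Ckmt2 (ENSMUSG00000021622, chromosome 13, 91853387 to 91876885, minus strand), the sarcomeric mitochondrial kinase, had a quite different spread. It stood at 35.0, 26.8, 10.8, 6.61 and 0.169 CPM in WT and at 0, 11.3 and 57.6 CPM (lowest, median, highest) in iFAXLKO. The library with no Ckmt2 read, iFAXLKO replicate 8, was the one with the least Acta1, and that with the most Ckmt2, iFAXLKO replicate 5, was the one with the most Acta1. In replicate 8 the absence of reads in 24.8 M counts allowed a level of up to 0.121 CPM before TMM scaling, and WT replicate 5 had 4 reads. Between the groups the log2 fold change was 0.049 (SE 1.15, 95% interval -2.47 to 2.57, edgeR adjusted p = 0.996). Its direction was not fixed by the data: it was -0.59 without iFAXLKO replicate 5 and 0.57 without WT replicate 1.

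Ckmt1 (ENSMUSG00000000308, chromosome 2, 121357714 to 121363737, plus strand), the ubiquitous mitochondrial kinase, was at the limit of detection. It had 6, 2, 2, 7 and 1 reads in the WT libraries and between 0 and 2 reads in the iFAXLKO libraries, 18 reads in all against 6. The mean was 0.130 ± 0.097 CPM (SD, n = 5) in WT and 0.027 ± 0.026 CPM (SD, n = 8) in iFAXLKO, with an exact permutation p of 0.00544 (2-sided, unadjusted, n = 5 and 8). The groups overlapped, and in a fit without the filter on low values the log2 fold change was -2.07 with an edgeR adjusted p of 0.724 over 25735 genes. All but 2 of the WT libraries, replicates 1 and 4, held no more than 2 reads, within the 3 counts that a count of 0 allows. The span of the gene overlaps that of Strc on the opposite strand, which had 27 reads over all libraries against 24 for Ckmt1. As the strand setting of the counting is not known, reads in a stretch shared by both genes cannot be told apart. How much exon they share was not measured.

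Alpl (ENSMUSG00000028766, chromosome 4, 137741733 to 137796384, minus strand) encodes tissue-nonspecific alkaline phosphatase, the enzyme known to hydrolyse phosphocreatine in thermogenic fat. It stood at 30.5, 30.9, 36.4, 42.7 and 26.9 CPM in WT and at 27.6, 38.0 and 56.8 CPM (lowest, median, highest) in iFAXLKO. The 2 highest libraries, iFAXLKO replicates 4 and 1, lay above all WT libraries, and the lowest was WT replicate 5. The log2 fold change was 0.24 (SE 0.17, edgeR adjusted p = 0.819), and 6 of 8 iFAXLKO libraries lay above the WT mean.

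Of the calcium genes, Atp2a2 (ENSMUSG00000029467, chromosome 5, 122453513 to 122502225, minus strand) encodes SERCA2, the calcium pump of heart, slow muscle and most other tissues. It stood at 366, 255, 280, 237 and 319 CPM in WT and at 185, 249 and 310 CPM (lowest, median, highest) in iFAXLKO. All but 1 of the 8 iFAXLKO libraries lay below the WT mean, and 4 of them lay below every WT library. The log2 fold change was -0.25 (SE 0.14, 95% interval -0.55 to 0.05), which missed the limit (edgeR p = 0.0921, adjusted p = 0.729, exact permutation p = 0.119). The difference of mean log2 CPM was -0.45 among the 6 libraries with the lower sample numbers in the names of the deposited tables and -0.093 among the 7 with the higher ones. Of the WT libraries, the lower numbers held replicates 1 and 2 alone, and replicate 1 had the highest Atp2a2 of all libraries.

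Ryr2 (ENSMUSG00000021313, chromosome 13, 11553102 to 12106945, minus strand), the ryanodine receptor of heart and many non-muscle tissues, stood at 33.9, 18.7, 25.2, 22.5 and 37.7 CPM in WT and at 4.66, 18.5 and 34.1 CPM (lowest, median, highest) in iFAXLKO. The lowest value, in iFAXLKO replicate 7, rested on 124 reads and was far below the next, 14.7 CPM in iFAXLKO replicate 1. As for Atp2a2, 1 of 8 iFAXLKO libraries lay above the WT mean. The log2 fold change was -0.56 (SE 0.33, edgeR p = 0.116, adjusted p = 0.748, exact permutation p = 0.0870) and -0.42 without replicate 7. The 2 calcium genes thus had the most negative differences of the 8, and for neither did the difference exceed the spread between libraries in the test.

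**Figure D1:**
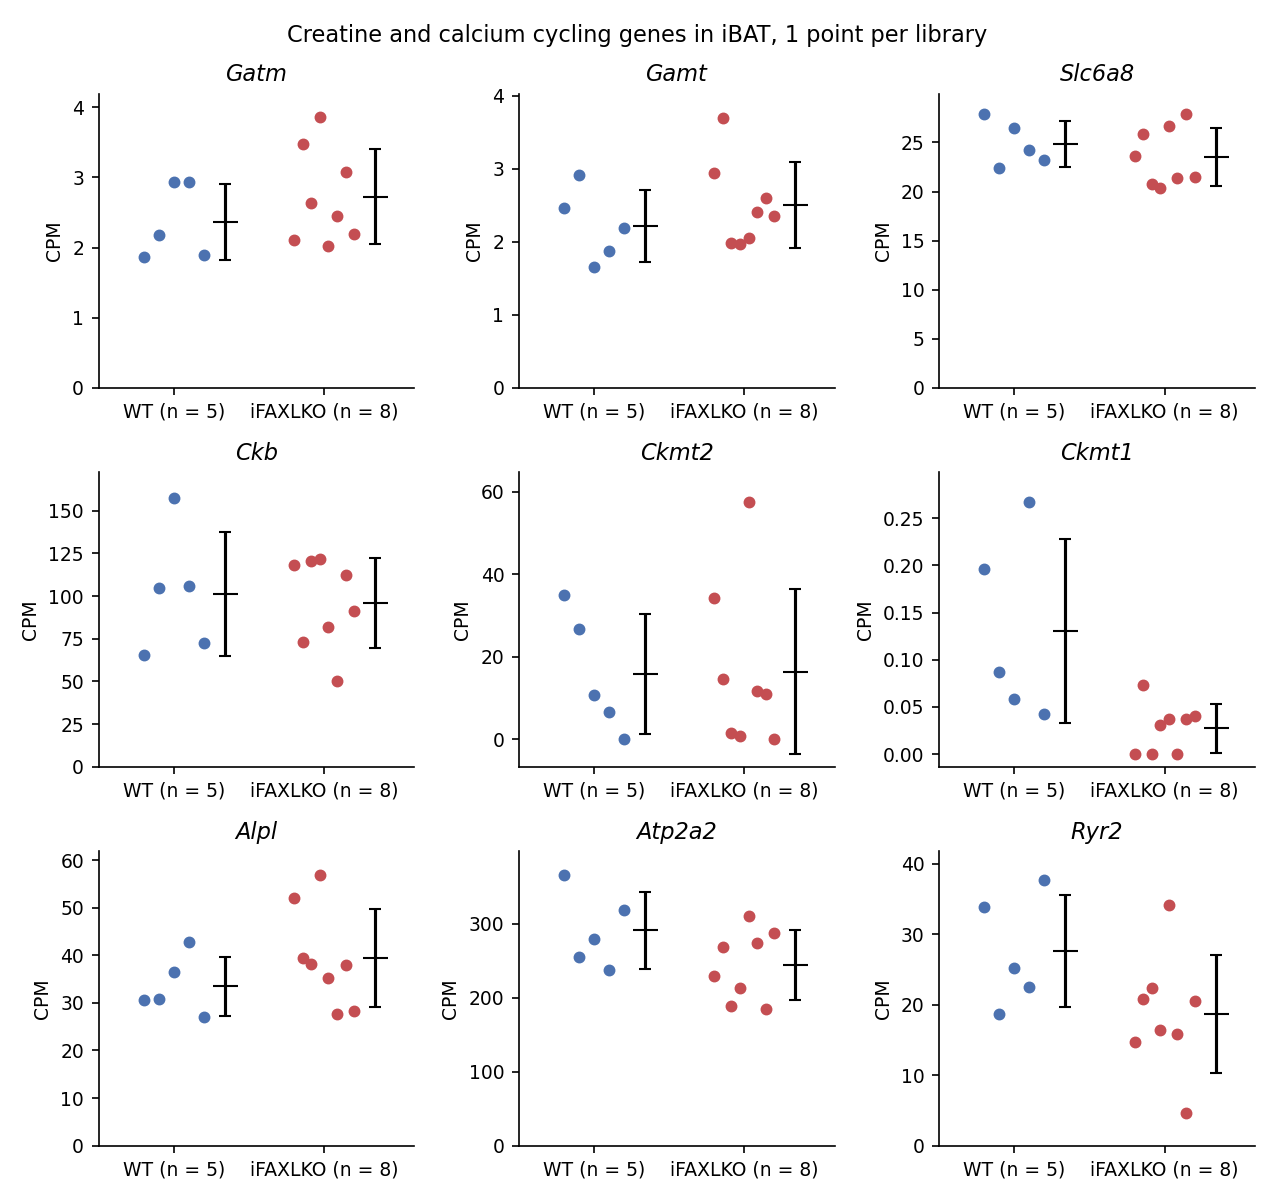
Level of each of the 9 genes in CPM (vertical axis, linear) for the 5 WT and 8 iFAXLKO libraries, 1 point per library in replicate order, with the mean and SD as a bar beside the points. The groups overlap in every panel, Ckmt2 runs from 0 to 57.6 CPM within iFAXLKO alone, and Ckmt1 stays under 0.3 CPM.

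Over the set, 0 of the 8 members tested were called between the groups at an adjusted p under 0.05, and 0 of 8 had an unadjusted p under 0.05 (edgeR's quasi-likelihood test; 0 of 8 were called with DESeq2 as well). Over all 13360 genes tested, 17 were called, or 0.127%, and 986 had an unadjusted p under 0.05, or 7.38%. At these rates a set of 8 would hold no called gene or hardly any, so the count does not set the members apart. Of the 8, 4 differences were positive and 4 negative, and their median log2 fold change was -0.013, against -0.012 over all genes. The 95% intervals were narrowest for Slc6a8 and widest for Ckmt2. For the members other than Ckmt2 and Ryr2 they lay within -0.58 and 0.61 on the log2 scale, so differences inside those bounds remain possible at this number of libraries.

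**Figure D2:**
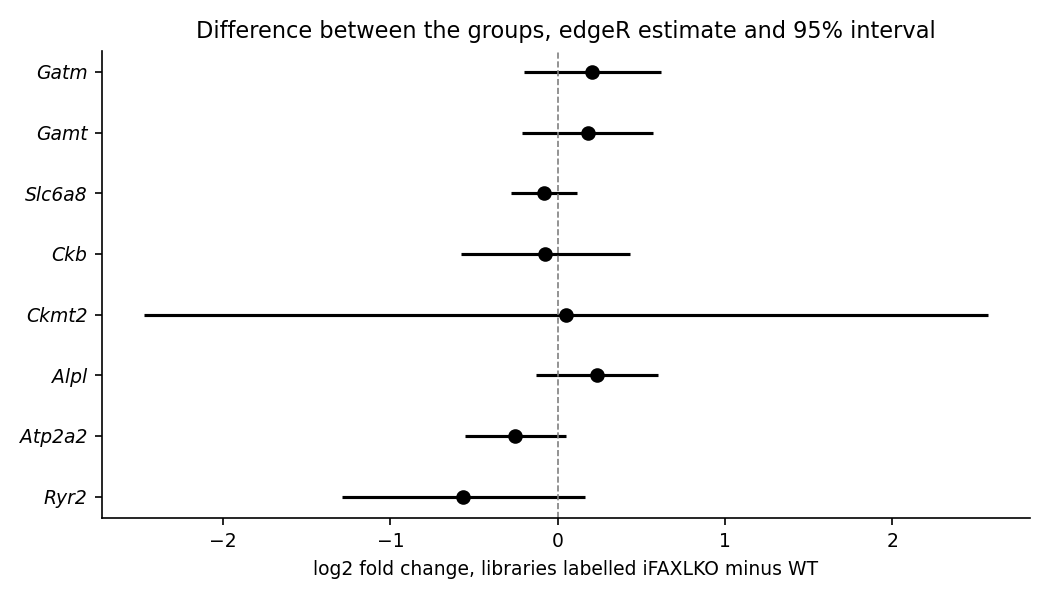
Log2 fold change between the groups (horizontal axis, libraries labelled iFAXLKO minus WT) for the 8 members tested, as the edgeR estimate (point) with its 95% interval (line). Every interval includes 0, and that of Ckmt2, from -2.47 to 2.57, is the widest.

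Each member was next set against skeletal muscle RNA. The fit held the group and a skeletal muscle score, and the slope on the score was tested. The score was the mean log2 CPM of 20 muscle genes, which include Acta1, Ckm, Atp2a1 and Ryr1 but none of the members. Ckmt2 was the only one of the 8 members called: it rose by 1.16 log2 units per unit of the score (SE 0.052, edgeR adjusted p = 3.38e-10), much as Acta1 (1.17) and Ckm (1.11) did. Over all genes, 207 (1.55%) rose with the score and 2 (0.015%) fell. The 20 genes of the score, which enter both sides of the fit, were all among the 207. The slopes of the other 7 members lay between -0.012 and 0.035, with adjusted p-values from 0.990 to 0.999. Slc6a8 had the smallest unadjusted p of these, 0.0600, at a slope of 0.033 (SE 0.016). Slow muscle, whose SERCA is that of Atp2a2, moved alike: all 7 slow muscle genes rose with the score. Of 7 cardiac genes 1 passed the filter, and it was not called.

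Correlations with Acta1 alone, which is part of the score, gave the same split. For Ckmt2, Pearson's r over the 13 libraries was 0.989 (permutation p = 1e-05, the smallest that 100000 orders can give, adjusted p = 0.00109 over all genes tested) and Spearman's rho was 0.956 (permutation p = 1e-05, adjusted p = 0.000915). It remained at r = 0.980 when WT replicate 5 and iFAXLKO replicate 8, whose Acta1 was farthest from the median, were left out, and was 1.00 and 0.987 within the same 6 and 7 libraries as above. Slc6a8 followed with r = 0.562 (permutation p = 0.0424, adjusted p = 0.971) and rho = 0.610 (permutation p = 0.0312, adjusted p = 0.687), which fails the correction, and r = 0.632 with those 2 libraries left out. Both coefficients were weaker for the other 6, with r between -0.037 and 0.241, rho between -0.35 and 0.324, unadjusted permutation p-values of 0.247 or more for either and adjusted ones of 0.940 or more.

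The values of these 6 were not stable. Without WT replicate 5 and iFAXLKO replicate 8, r was -0.73 for Gatm and 0.683 for Atp2a2, against -0.033 and 0.053 with them, and it was -0.31 for Ckb, 0.350 for Gamt, -0.41 for Alpl and 0.311 for Ryr2. For all 6 the sign differed between the 6 libraries with the lower sample numbers and the 7 with the higher ones. In that order r was -0.73 and 0.421 for Gatm, 0.706 and -0.25 for Atp2a2, and -0.55 and 0.141 for Ckb. It was 0.724 and -0.35 for Gamt, -0.51 and 0.642 for Alpl, and 0.225 and -0.11 for Ryr2, whereas for Slc6a8 it was 0.769 and 0.628. In the slope fit on the 11 libraries left, which was added after seeing the data, the slope was -0.15 for Gatm (adjusted p = 0.553) and 0.11 for Atp2a2 (adjusted p = 0.544), so neither was called. In those libraries with hardly any Acta1, Atp2a2 stood at 319 and 287.5 CPM and Ckb at 72.7 and 91.2 CPM, levels within the range of the other 11. Ryr2 stood at 37.7 CPM, its highest value, in WT replicate 5 and at 20.5 CPM in iFAXLKO replicate 8. In bulk tissue, fewer cells of a type and less RNA per cell cannot be told apart.

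**Figure D3:**
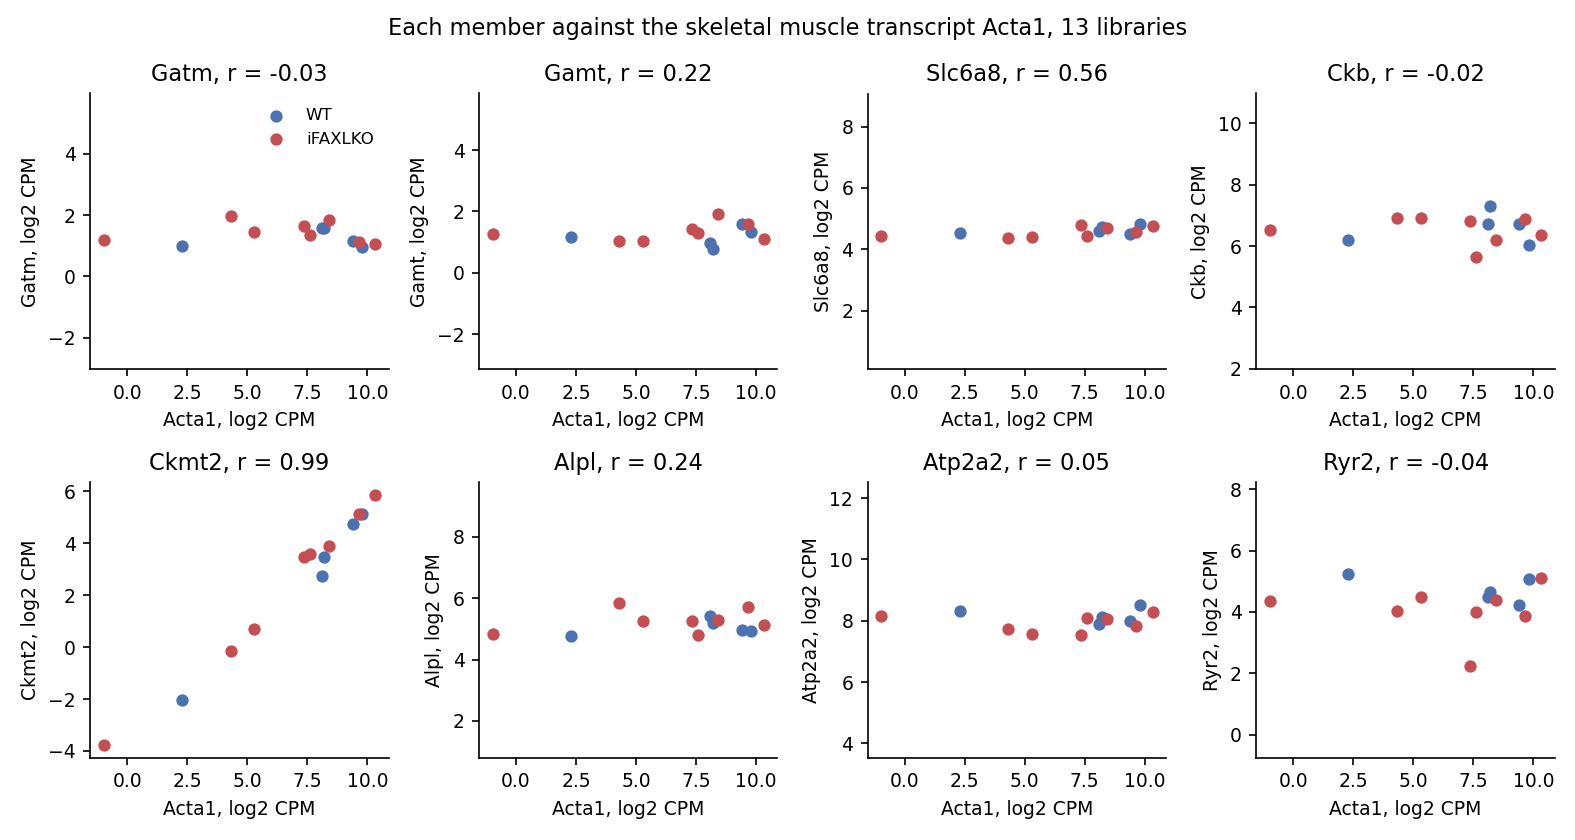
Log2 CPM of each of the 8 members tested (vertical axis, spanning at least 9 log2 units in every panel) against log2 CPM of the skeletal muscle transcript Acta1 (horizontal axis), 1 point per library, blue for WT and red for iFAXLKO. Ckmt2 rises along a line (r = 0.99), whereas the other members form no such line over the range of Acta1.

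The ratio of Ckmt2 to muscle transcripts was then taken within each library. In the 12 libraries with more than 3 Ckmt2 reads, there were between 2.42 and 6.68 Ckmt2 reads for every 100 Acta1 reads (median 4.06), a 2.75-fold range against one of 300.4-fold in the Acta1 reads themselves. Per 100 Ckm reads there were 5.99 to 16.3 (median 8.33). Ckmt2 per 100 Acta1 reads was 4.84 ± 1.07 (SD, n = 7) in iFAXLKO and 3.50 ± 0.633 (SD, n = 5) in WT, with an exact permutation p of 0.0189 (2-sided, unadjusted). Per 100 Ckm reads it was 10.6 ± 3.46 against 7.90 ± 1.80, with an exact permutation p of 0.158. These ratios were chosen after the values were seen, and the cut was made on the Ckmt2 reads that enter them. It left out iFAXLKO replicate 8, with 0 Ckmt2 and 11 Acta1 reads, and kept WT replicate 5, with 4 and 114. With the skeletal muscle score as a covariate, the log2 fold change of Ckmt2 between the groups was 0.51 (SE 0.19), with an edgeR adjusted p of 0.573, so the difference was not called.

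Levels per kb of exon allow a rough comparison between genes, as the length was that of all annotated exons of a gene merged. On this scale Atp2a2 was the most abundant member, with a mean of 43.2 CPM per kb over the 13 libraries. Ckb followed with 33.9, Ckmt2 with 10.9, Alpl with 9.21, Slc6a8 with 4.61, Gamt with 1.66, Gatm with 0.862 and Ryr2 with 0.768 CPM per kb, and Ckmt1 was lowest with 0.027. Ckmt2 ranged from 0 to 38.8 CPM per kb, across the levels of most other members. The ranges over the libraries also overlapped between Atp2a2 and Ckb, and among Gamt, Gatm and Ryr2, whereas those of Alpl, Slc6a8 and Gamt stood apart from each other. Ucp1, for comparison, had a mean of 3603 CPM per kb.

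Within the creatine kinase family, the make-up went with the level of muscle transcripts. Shares of a family add up to the whole, and Ckm is itself part of the muscle score. As Ckb had no called slope on the score, its share fell where Ckm rose, so the shares restate the slopes above. Counted per kb, Ckb made up 14.4, 20.9, 49.7, 46.3 and 96.4% of creatine kinase reads in the WT libraries and 11.3, 44.2 and 99.6% (lowest, median, highest) in the iFAXLKO libraries. The remainder was almost wholly Ckm, the muscle-type kinase, and Ckmt2. In the 2 libraries lowest in Acta1, Ckmt2 was 0.435% and 0%, and in the 2 highest 15.01% and 15.5%. The mean share of Ckb was 52.8 ± 34.4% (SD, n = 8) in iFAXLKO and 45.5 ± 32.3% (SD, n = 5) in WT, with an exact permutation p of 0.713 (2-sided). That of Ckmt2 was 8.38 ± 6.29% against 7.63 ± 5.45%, with an exact permutation p of 0.828. Without WT replicate 5, the difference in the Ckb share, iFAXLKO minus WT, was 19.97 percentage points against 7.26 with it.

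The calcium families behaved alike, by the same arithmetic, as Atp2a1 and Ryr1 are part of the muscle score too. Atp2a2 made up 20.7, 22.6, 32.9, 34.3 and 91.5% of SERCA reads per kb in WT and 14.4, 42.8 and 91.3% (lowest, median, highest) in iFAXLKO, the rest being mainly Atp2a1, the SERCA of fast muscle, except in WT replicate 5 and iFAXLKO replicate 8, where it was mainly Atp2a3. Ryr2 made up 20.3, 28.8, 38.4, 43.0 and 97.0% of ryanodine receptor reads in WT and 13.9, 40.5 and 98.7% in iFAXLKO, the rest being mainly Ryr1, the receptor of skeletal muscle. In both families the highest shares were those of WT replicate 5 and iFAXLKO replicate 8, the libraries lowest in Acta1. Between the groups the shares did not differ beyond their spread (exact permutation p = 0.675 for Atp2a2 and 0.855 for Ryr2, 2-sided), though the difference went from 6.96 to 19.7 points for Atp2a2 and from 4.84 to 17.7 points for Ryr2 without WT replicate 5. Ryr3, the least abundant of its family, had 0 to 5 reads per library.

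**Figure D4:**
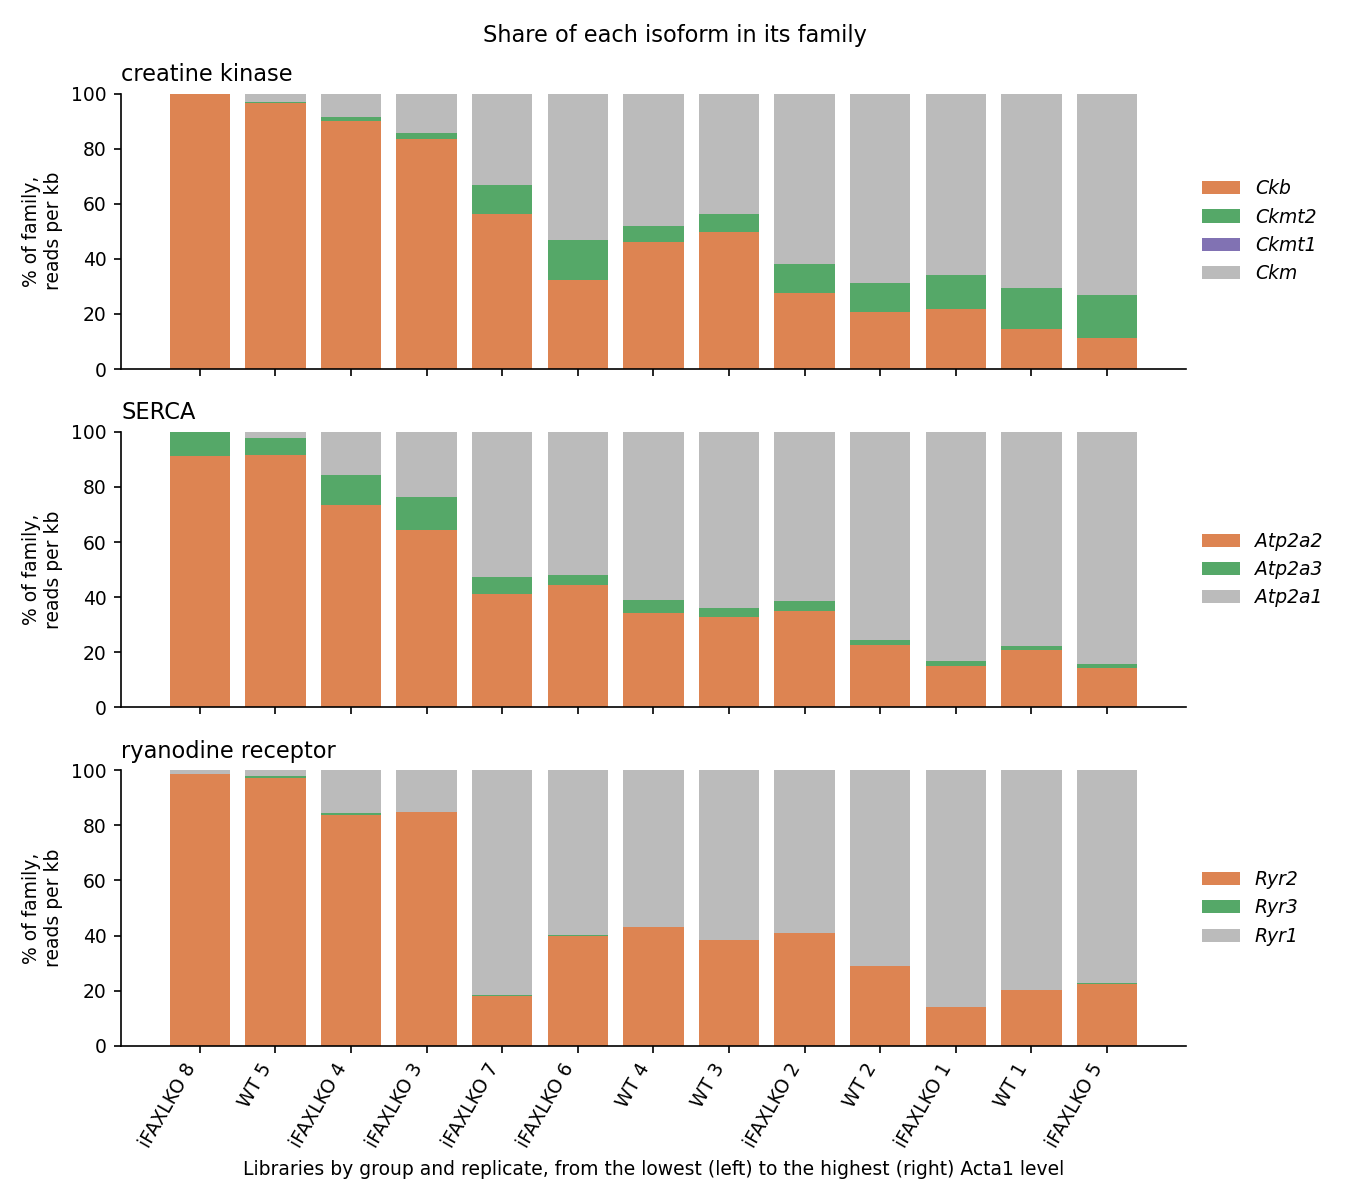
Share of each isoform in the creatine kinase, SERCA and ryanodine receptor families (vertical axis, percent of the family's reads per kb of exon) in each of the 13 libraries, ordered on the horizontal axis by Acta1. The muscle isoforms Ckm, Atp2a1 and Ryr1, in grey, take larger shares towards the right, Ckmt1 and Ryr3 are hardly visible, and Ckb, Atp2a2 and Ryr2 make up 99.6%, 91.3% and 98.7% in the library at the left end.

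The other genes around the creatine cycle were counted from a list of 22, of which 18 passed the filter. Between the groups, 0 of 18 were called and 3 had an unadjusted p under 0.05 in edgeR's test. Over all genes tested these shares were 0.127% and 7.38%. The median log2 fold change was -0.074 against -0.012 over all genes, and 15 of the 18 were negative. Phospho1, a phosphatase known to be abundant in brown fat, was measured at 805 ± 151 CPM (SD, n = 5) in WT and 619 ± 85.5 CPM (SD, n = 8) in iFAXLKO, and lay under the WT mean in all 8 of these (log2 fold change -0.38, SE 0.12, edgeR adjusted p = 0.488). Oat, ornithine aminotransferase, which consumes ornithine, a product of the Gatm reaction, had a log2 fold change of 0.15 with 8 of 8 libraries above the WT mean (adjusted p = 0.619), and Slc6a6, the taurine transporter, one of -0.27 with 1 of 8 above (adjusted p = 0.631). Slc25a15 and Gpam had the next smallest p-values, with log2 fold changes of -0.10 and -0.16 (adjusted p = 0.798 and 0.806). On the muscle score, 1 of the 18 was called, Ckm, which belongs to the score and rose, as 1.55% of all genes tested did.

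Of 42 other calcium cycling genes, 39 were matched to an identifier and 34 passed the filter. Between the groups, 0 of 34 were called and 3 had an unadjusted p under 0.05 in edgeR's test. Over all genes tested these shares were 0.127% and 7.38%. The median log2 fold change was -0.027. Atp2b4, a calcium pump of the plasma membrane, had a log2 fold change of 0.46 with 8 of 8 libraries above the WT mean (adjusted p = 0.551), and Orai3, a store-operated calcium channel, one of -0.22 with 1 of 8 above (adjusted p = 0.571). Camk2d and Micu2 came next, with 0.11 and -0.077 (adjusted p = 0.840 and 0.866). The peptide inhibitors of SERCA were scarce: Sln, sarcolipin, ranged from 0 to 2.65 CPM and Pln, phospholamban, from 0.561 to 1.84 CPM, and neither passed the filter. Atp2a3, the third SERCA gene, had a log2 fold change of 0.12 (adjusted p = 0.905).

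On the muscle score, 9 of the 34 calcium genes rose and 0 fell, against 1.55% and 0.015% of all genes tested. Trdn, triadin of the muscle calcium release complex, had the steepest slope, 1.18, followed by Atp2a1 with 1.13, Ryr1 and Hrc with 1.04 each and Casq1, calsequestrin of fast muscle, with 0.99. Atp2a1, Ryr1 and Casq1 are themselves part of the score. Camk2a, Jph2, Casq2 and Jph1 had lower slopes of 0.55, 0.44, 0.22 and 0.19, with edgeR adjusted p-values from 1.41e-05 to 0.0405. The other 25 were not called.

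**Figure D5:**
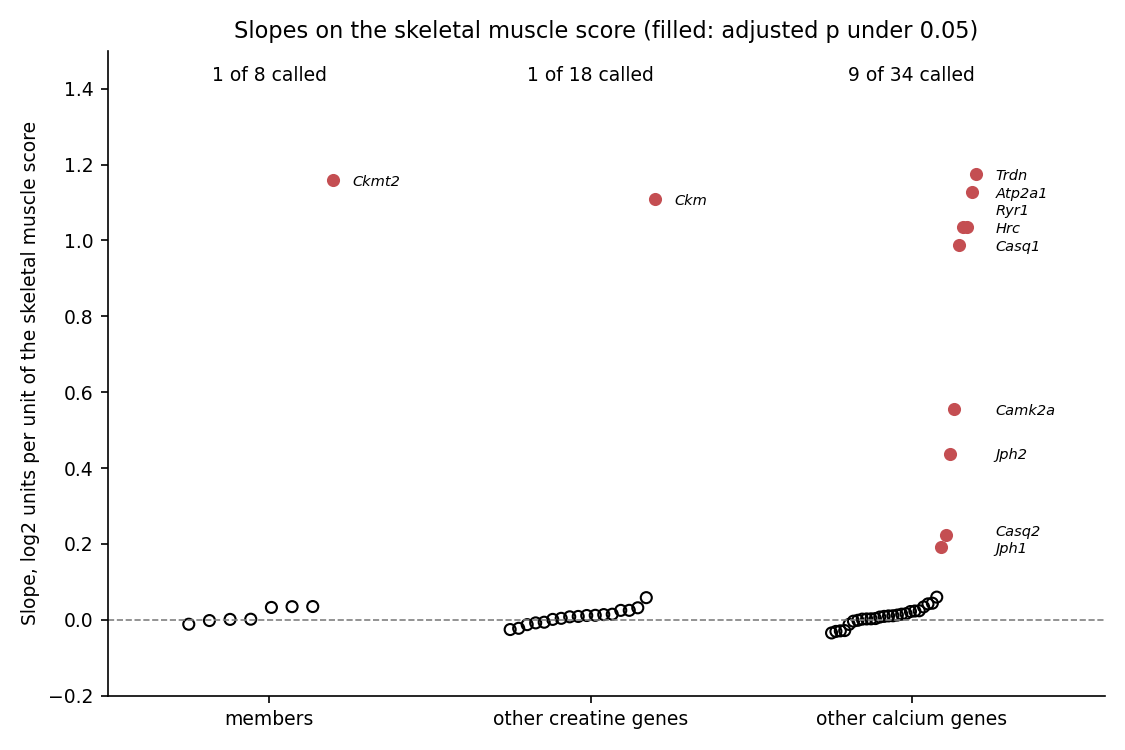
Slope on the skeletal muscle score (vertical axis, log2 units per unit of the score) for the 8 members tested, 18 other creatine genes and 34 other calcium genes, each in ascending order, with genes called at an adjusted p under 0.05 filled and named. Ckmt2 stands alone among the members at 1.16, with the other 7 close to 0.

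The genes most like each member over the 13 libraries were taken by Pearson's r of log2 CPM among 13359 other genes, as a description. For Ckmt2 these were Myot, Tcap and Mybpc1 (r = 0.995, 0.995 and 0.994), all 3 of them sarcomere genes. For Atp2a2 they were Myo1c, Lpgat1 and Rab5a (0.959, 0.927 and 0.922), and for Ryr2 Optn, Myef2 and Gm17067 (0.914, 0.910 and 0.900). For Ckb they were Tymp, Sco2 and Tst (0.903, 0.900 and 0.896), for Alpl Plppr2, Sipa1 and Mmp3 (0.904, 0.901 and 0.893), and for Gatm Inca1, Kif19a and Plekha4 (0.935, 0.916 and 0.903). Gamt had Tango2, Moap1 and Gsta3 (0.878, 0.878 and 0.856), and Slc6a8 had the weakest, Atxn7l3, Pvr and Dffa (0.837, 0.828 and 0.807).

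Markers of other cell types were uneven between the groups without being called, and their part in the differences above was not tested. All 6 fibroblast markers had a positive log2 fold change and an unadjusted p under 0.05 (median 0.56), with a summed level of 318 to 559 CPM in WT and 435 to 965 CPM in iFAXLKO, and all 6 macrophage markers were positive, 5 of them with p under 0.05 (median 0.41, summed level 59.7 to 84.6 against 69.4 to 136 CPM). The 6 brown adipocyte markers were all negative (median -0.17), 1 of them with p under 0.05. None of these was called. Over all genes tested, 7.38% had an unadjusted p under 0.05 in edgeR's test. The 6 smooth muscle and pericyte markers were all positive too (median 0.19), as were 5 of 6 endothelial and 5 of 6 Schwann cell markers. Of these, 1 Schwann cell marker had an unadjusted p under 0.05. Negative were 19 of the 20 skeletal muscle genes (median -0.29) and all 7 slow muscle genes (median -0.16), none with p under 0.05. Against the mean log2 CPM of the fibroblast markers, r was 0.718 for Gatm (permutation p = 0.00638, adjusted p = 0.163 over all genes tested; rho = 0.698, permutation p = 0.0103) and 0.604 for Alpl (permutation p = 0.0300, adjusted p = 0.303; rho = 0.681, permutation p = 0.0125). It was -0.58 for Atp2a2 (permutation p = 0.0372, adjusted p = 0.330; rho = -0.63, permutation p = 0.0234) and -0.56 for Ryr2 (permutation p = 0.0413, adjusted p = 0.343; rho = -0.41, permutation p = 0.168). None of the 8 members passed the correction over all genes, and after leaving out WT replicate 5 and iFAXLKO replicate 2, farthest from the median of the score, r was 0.580, 0.564, -0.67 and -0.59 in that order. With group means subtracted, r was 0.781, 0.577, -0.41 and -0.37 in the same order. Within the 8 iFAXLKO libraries alone it was 0.794, 0.448, -0.29 and -0.33. Correlations with the fibroblast markers were not part of the plan, which named Acta1. With the fibroblast score as a covariate, added after seeing the data, the difference between the groups changed sign for Gatm (-0.36) and Alpl (-0.16) and was -0.019 for Atp2a2 and -0.16 for Ryr2, with adjusted p-values of 1.00 for all 4. As all 6 markers of the score were themselves higher in iFAXLKO, group and score vary together in this fit. Their parts cannot be told apart, and no cause is read from these changes.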

How the data were processed

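For each library the authors deposited a table of unnormalized counts, whole numbers of reads for every Ensembl gene identifier. The processing notes of the submitters name bcl2fastq 2.20, fastp 0.20.0, STAR 2.7.4a and GRCm38.p6, whereas the methods of the study name Trim Galore and hisat2. How reads were counted, and with which strand setting, is not given in the sources used here. The labels give polyA RNA and the methods depletion of rRNA, which was not resolved.

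Symbols and positions were taken from a gene name table and GENCODE M21 (GRCm38), which gave a symbol for 42263 and a position for 42347 of 42416 identifiers. Testing used TMM scaling and edgeR 4.0.16 (glmQLFit and glmQLFTest, robust) in R 4.3.3 over the 13360 genes that exceeded 1 CPM, before that scaling, in 5 or more libraries. P-values were 2-sided and adjusted by the Benjamini-Hochberg method over all genes tested, with a limit of 0.05. The SE was the log2 fold change divided by the square root of F, and 95% intervals used the t distribution of the fit. The slope on the skeletal muscle score was tested in a fit with the group. Log2 CPM had a prior count of 2. Exact permutation tests ran over all 1287 arrangements of the 13 libraries (smallest p 0.000777), or 792 for 12, and correlations (8 members with each of 3 muscle and fibroblast measures) over 100000 random orders. Nothing in the labels but the replicate number separates the mice of a group, so p-values measure the spread between these libraries. The lowest chi-square per degree of freedom between libraries of 1 group was 15.3, so none was a duplicate. The scripts were tested on simulated data. The members and lists were chosen with earlier results of these data known. The genes named were, by rule, all members, Axl, Acta1 and other muscle genes, Ucp1, the isoform families with Sln and Pln, the 5 genes of each list with the smallest p, called genes and the 3 genes most like each member; Strc was named outside it, and 1 gene of the calcium list is not reported here. The alternatives were other size factors, DESeq2 1.42.0, limma-voom (limma 3.58.1), other filters, covariates, the replicate block, ranges of library numbers and leaving out each library.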

Additional observations from a re-analysis of the deposited data

How the results depend on the processing

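The members called between the groups numbered 0 under all 13 alternatives that gave a count and with each library left out, and Ckmt2 alone was called on the muscle score under all 6 alternatives tried there and with each library left out. The median log2 fold change of the members ranged from -0.14 to 0.08 with 1 library left out. The total of genes called between the groups was 17, but 67 with DESeq2, 7 with the replicate block, 8 with a fibroblast score as a covariate and 11 without WT replicate 5 and iFAXLKO replicate 8 (the last 2 added after seeing the data), and 14 to 19 with 1 library left out; the cause was not tested. That on the muscle score was 209, but 377 with no filter beyond 1 count, which tests more genes, and 179 to 216 with 1 library left out.

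Directions that turned were all of differences or slopes that were not called, and their cause was not tested. For the difference between the groups, Ckmt2 turned to -0.40 with limma-voom and sample quality weights, -0.52 with the replicate block, -0.073 without the 2 muscle-poorest libraries and -2.56 in the lower range of library numbers, and ranged from -0.59 to 0.57 with 1 library left out. Ckb turned to 0.062 with the block and 0.36 in the lower range, and ranged from -0.20 to 0.16 (without WT replicate 3). Gamt turned to -0.063 in the lower range, Gatm to -0.079 and Alpl to -0.12 in the upper range, and with the fibroblast score Gatm turned to -0.36, Alpl to -0.16 and Axl to -0.19. Atp2a2, Ryr2 and Slc6a8 turned under none of the 15 alternatives tried, nor with a library left out. Of the WT libraries, the lower range of library numbers held replicates 1 and 2 alone.

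Slopes near 0 on the muscle score turned too. With Acta1 in place of the score they were -0.00091 for Ckb, 0.00026 for Gatm and -0.00075 for Atp2a2, with the block -0.028 for Gamt and 0.014 for Ryr2, and without the 2 muscle-poorest libraries -0.11 for Ckb, -0.058 for Alpl and 0.11 for Ryr2. With 1 library left out they ranged from -0.040 to 0.015 for Ckb, -0.041 to 0.019 for Gatm, -0.016 to 0.034 for Atp2a2 and -0.071 to 0.029 for Ryr2. The r with Acta1 turned to 0.015 for Gatm and -0.022 for Atp2a2 with group means subtracted, and to -0.41 for Alpl and 0.31 for Ryr2 without the 2 farthest libraries.

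With 1 library left out, the difference in isoform share, iFAXLKO minus WT in percentage points, ranged from -0.53 to 19.97 for Ckb (7.26 with all), -1.04 to 2.602 for Ckmt2 (0.755), 0.683 to 19.7 for Atp2a2 (6.96) and -2.07 to 17.7 for Ryr2 (4.84). The high ends were reached without WT replicate 5 for Ckb, Atp2a2 and Ryr2 and without WT replicate 1 for Ckmt2; exact permutation p-values stayed at 0.194 or more.

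Replicate numbers did not pair the libraries: the r of the deviations of same-numbered libraries from their group means ran from -0.61 to 0.42, and 2 of 5 correlated best with their own number. The replicate block, over 10 libraries, called 0 members between the groups. Depth limits Ckmt1, with 24 reads in all, and Ckmt2 in the 2 muscle-poorest libraries.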
